A study of Mus musculus with 6 samples.

Results

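The miR-30 family comprises the microRNAs miR-30a, miR-30b, miR-30c, miR-30d and miR-30e. Its members were chosen by name, as every mature miRNA of the count table that belongs to one of these 5, whatever its level. The choice gave 11 mature arms, 5 cut from the 5′ side of the hairpin (5p) and 6 from the 3′ side (3p), of 1952 mature miRNAs in all. All 11 had counts in all 6 libraries and passed the filter on low counts in each comparison, so none was left out.

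Small RNA was sequenced from total RNA of heart cardiomyocytes, the contractile cells of heart muscle, of C57BL/6 mice. The mice were wild type or LncSync-/-, a null genotype for a gene named as a long non-coding RNA, and were adults or embryos at e13.5, mid-gestation. There were 2 adult wild-type, 2 adult LncSync-/-, 1 e13.5 wild-type and 1 e13.5 LncSync-/- library. The labels give no adult age, no detail of the null allele and no account of how cardiomyocytes were isolated, and they do not say whether replicates came from separate animals. The p-values below therefore measure the spread between libraries, which may be technical.

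The miR-30 genes lie in 3 pairs on different chromosomes, and each pair can be transcribed as 1 primary RNA. Drosha and Dicer cut the hairpins out of it, and 1 arm is usually loaded into an Argonaute protein while the other is mostly degraded. A loaded miRNA finds its target mRNAs mainly through its seed, bases 2 to 8, and all 5p arms of the family share 1 seed. In the heart the family is known as abundant in cardiomyocytes and as a repressor of connective tissue growth factor, a matrix-promoting secreted protein, and it has been tied to control of mitochondrial fission and autophagy.

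The sequences show what the arms share and where they part, which bears on how far their counts can be told apart. RefSeq sequences (GRCm38.p6) were matched for 7 of the 11 arms; the arms of miR-30b and miR-30d are given by name. Seeds are in capitals, 5′ to 3′. The 5p arms carry the seed GUAAACA.
miR-30a-5p: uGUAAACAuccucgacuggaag
miR-30e-5p: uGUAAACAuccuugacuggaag
miR-30c-5p: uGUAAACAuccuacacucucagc
The 3p arms printed here fall into 2 seed groups, UUUCAGU and UGGGAGA.
miR-30a-3p: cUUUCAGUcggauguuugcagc
miR-30e-3p: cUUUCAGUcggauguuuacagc
miR-30c-1-3p: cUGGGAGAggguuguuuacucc
miR-30c-2-3p: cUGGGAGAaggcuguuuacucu
With positions counted from 1 at the 5′ end and miR-30a first, the miR-30a and miR-30e arms differ by C13U in the 5p arm and by G18A in the 3p arm. From miR-30c-1-3p to miR-30c-2-3p the changes are G9A, U12C and C22U. How reads that fit several miRNAs were counted is not given in the sources used here, so the split between miR-30a and miR-30e is uncertain. Their 5p counts did not keep 1 ratio, though a varying ratio does not show that no reads were shared. The miR-30a-5p count was 2.90 and 1.93 times that of miR-30e-5p in adult wild type, 2.49 and 2.27 times in adult knockout, and 3.67 and 4.33 times in wild type and knockout at e13.5.

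The hairpins show the source of each arm, with both arms in capitals (GRCm38.p6, the patched release of the mm10 assembly named for the files). Mir30a (chr1:23272269-23272339, plus strand) overlaps no other annotated gene. Mir30c-2 (chr1:23291701-23291784, plus strand) lies 19361 bases further, within an exon of the lincRNA Gm27028. Mir30c-1 (chr4:120769534-120769622) and Mir30e (chr4:120772606-120772697), 2983 bases apart on the minus strand, lie in introns of Nfyc, which encodes a subunit of the transcription factor NF-Y. Mir30b and Mir30d lie 3697 bases apart on chromosome 15.
Mir30a: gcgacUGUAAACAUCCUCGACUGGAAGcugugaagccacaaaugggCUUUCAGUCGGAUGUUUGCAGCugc
Mir30c-2: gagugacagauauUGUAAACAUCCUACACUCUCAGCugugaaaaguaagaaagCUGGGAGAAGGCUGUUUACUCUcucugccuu
Mir30c-1: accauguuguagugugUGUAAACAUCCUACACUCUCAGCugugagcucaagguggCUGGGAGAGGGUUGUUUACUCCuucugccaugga
Mir30e: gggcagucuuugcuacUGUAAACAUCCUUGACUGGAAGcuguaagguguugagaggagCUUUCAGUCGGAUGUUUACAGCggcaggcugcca
The Mir30c-1 and Mir30c-2 hairpins give the same miR-30c-5p, so its count cannot be assigned to either locus. Their 3p arms differ and report each locus separately.

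Mature counts summed to between 14347091 and 17933518 in the adult libraries, 8944552 in e13.5 wild type and 2671957 in e13.5 knockout. As a check of the labelled cell type, cardiac muscle miRNAs (the miR-1a, miR-133, miR-208 and miR-499 arms) held 28.2 to 39.5% of mature counts in the adults but 14.6% and 9.86% in the e13.5 wild-type and knockout libraries. The smooth muscle and fibroblast miRNAs miR-143, miR-145a, miR-199 and miR-214, summed over 9 arms, held 35.6% and 21.5% there against 7.48 to 11.8% in adults. That sum does not describe each arm. In the stage test below, 1 of the 9 was called higher at e13.5 and 2 lower, with a median log2 difference of -1.07. The summed shares of both lists moved with stage beside every stage result below, and their part in those results was not tested. In such bulk samples fewer cells of a type and less miRNA per cell cannot be told apart.

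The family was among the most abundant of the adult cardiomyocyte miRNAs. Of mature counts, its 11 arms held 15.9% and 13.9% in adult wild type and 11.9% and 16.7% in adult knockout (14.6 ± 2.15%, SD, n = 4). At e13.5 the wild-type share was 6.47% (Wilson 95% interval 6.456 to 6.488%) and the knockout share 8.50% (interval 8.467 to 8.534%), where intervals cover counting error only. Both e13.5 shares lay below all 4 adult shares. The 3p arms made up only 1.95 to 4.401% of the family's counts in adults and 1.58% and 1.51% at e13.5.

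The order of the 5p arms was led by miR-30a and miR-30d at both stages. Levels are given as CPM, each arm's count scaled to a common library total after TMM scaling over all 6 libraries, and the arms are of nearly the same length. Of all mature miRNAs, miR-30a-5p ranked 4th or 5th in adults and 6th and 7th at e13.5, and miR-30d-5p ranked 5th to 7th throughout. The level of miR-30a-5p was 60909 and 65088 CPM in adult wild type, 41736 and 119840 CPM in adult knockout, 23432 CPM in e13.5 wild type and 14563 CPM in e13.5 knockout. The level of miR-30d-5p was 53191 and 50619 CPM in adult wild type, 39344 and 73568 CPM in adult knockout, and 18545 and 19499 CPM at e13.5. These neighbours in the order overlapped at each stage. In both, at this TMM scaling, the adult knockout libraries lay on either side of the wild types. Every adult library also lay above both e13.5 libraries at this scaling.

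The other 5p arms were lower and more spread between stages. The level of miR-30c-5p was 33634 and 25608 CPM in adult wild type, 18362 and 36372 CPM in adult knockout, and 2712 and 1202 CPM in e13.5 wild type and knockout. For miR-30e-5p the values were 20993 and 33754 CPM in adult wild type, 16738 and 52775 CPM in adult knockout, and 6386 and 3367 CPM at e13.5. In adults these arms overlapped, so their order did not hold beyond the spread between libraries. The lowest 5p arm was miR-30b-5p, at 3480 and 2947 CPM in adult wild type, 1969 and 5419 CPM in adult knockout, 229 CPM in e13.5 wild type and 30.9 CPM in e13.5 knockout. It lay below each other 5p arm in all 6 libraries and had the widest range of the 11 arms as a fold between its highest and lowest library.

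Among the 3p arms, those of miR-30e and miR-30a were the most abundant. The level of miR-30e-3p was 2070 and 3022 CPM in adult wild type, 2697 and 2781 CPM in adult knockout, and 303 and 156 CPM at e13.5. The level of miR-30a-3p was 1857 and 2643 CPM in adult wild type, 2177 and 2389 CPM in adult knockout, and 306 and 260 CPM at e13.5. These neighbours in the order overlapped at each stage. The arm miR-30c-2-3p had 366 and 578 CPM in adult wild type, 408 and 407 CPM in adult knockout, and 169 and 159 CPM at e13.5. The rest, miR-30c-1-3p, miR-30b-3p and miR-30d-3p, lay between 16.8 and 85.1 CPM in adults and between 4.15 and 18.1 CPM at e13.5.

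**Figure D1:**
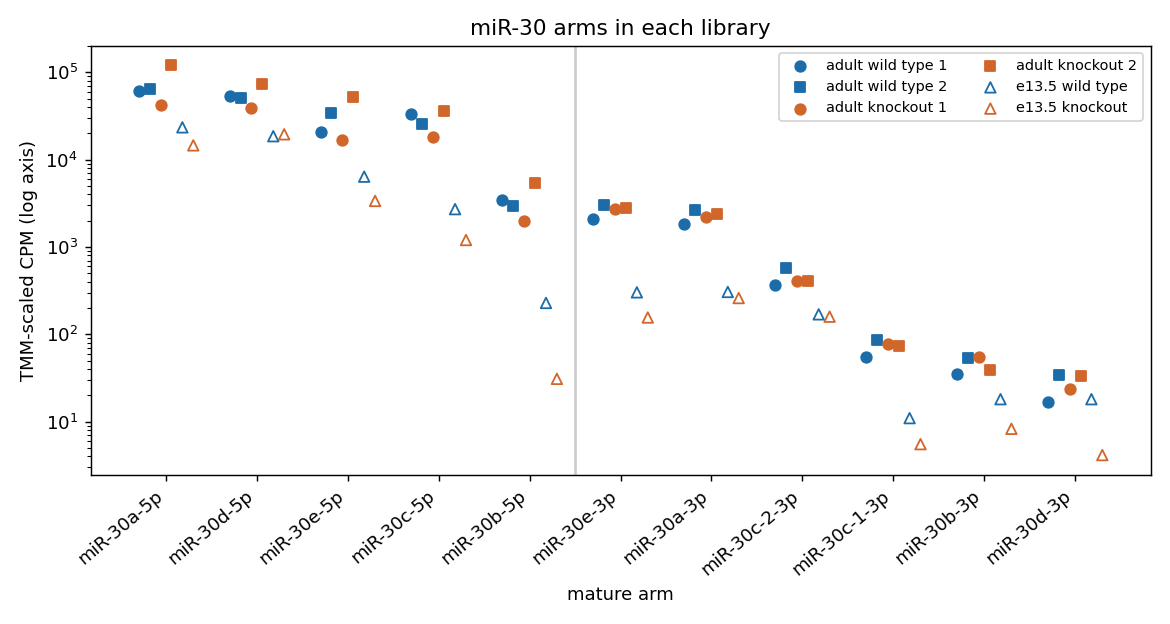
Level of each miR-30 arm in each library, as TMM-scaled CPM on a log axis, with 1 point per library, blue for wild type and orange for knockout, filled for adult and open for e13.5. For 10 of the 11 arms every adult point lies above both e13.5 points, and miR-30b-5p falls furthest, to 30.9 CPM in the e13.5 knockout library.

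Stage was the larger contrast, and the study's design sets e13.5 against adult cardiomyocytes in both genotypes. Nearly the whole family was lower at e13.5: 10 of the 11 arms passed edgeR's quasi-likelihood test at a Benjamini-Hochberg adjusted p of 0.05, all lower, with genotype in the model and 3 residual degrees of freedom. Of all 679 miRNAs tested, 57.7% passed in either direction, 28.4% lower and 29.3% higher. The median log2 difference (e13.5 minus adult) was -2.69 over the 11 arms and -0.06 over all miRNAs tested. In 10 of 11 arms every adult library also lay above both e13.5 libraries after TMM scaling, as did 37.3% of the 679. In CPM of library total, without TMM scaling, miR-30d-5p, miR-30c-2-3p and miR-30b-3p overlapped between stages too. The e13.5 knockout had 42226 CPM of miR-30d-5p and 345 CPM of miR-30c-2-3p, above the lowest adult values of 37830 and 231 CPM. For miR-30b-3p, e13.5 wild type had 22.5 CPM and adult knockout replicate 2 had 22.1 CPM.

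The fall at e13.5 differed in size between members of the shared 5p seed. The largest was in miR-30b-5p, whose adult mean was 26.6 times its e13.5 mean (log2 difference -5.06, SE 0.96, edgeR adjusted p = 0.00224). For miR-30c-5p the adult mean was 14.6 times that at e13.5 (log2 difference -3.95, SE 0.58, edgeR adjusted p = 0.000635). For miR-30e-5p it was 6.37 times (log2 difference -2.69, SE 0.65, edgeR adjusted p = 0.0078). The most abundant arms moved least: miR-30a-5p had a ratio of 3.78 (log2 difference -1.92, SE 0.56, edgeR adjusted p = 0.0188), and miR-30d-5p one of 2.85 (log2 difference -1.51, SE 0.44, edgeR adjusted p = 0.0181).

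The size of these differences depended on single libraries. For miR-30b-5p the log2 difference was -3.81 without the e13.5 knockout, -6.87 without the e13.5 wild type and -4.26 without adult knockout replicate 2, and its adult mean was 15.1 times the e13.5 wild-type level alone. Without adult knockout replicate 2 the other 5p arms were also closer to 0, at -3.21 for miR-30c, -1.72 for miR-30e, -1.002 for miR-30a and -0.81 for miR-30d. For miR-30e-5p it was -2.10 without the e13.5 knockout and -3.34 without the e13.5 wild type. Without adult wild-type replicate 1 or 2, neither miR-30a-5p (-1.58 and -1.62) nor miR-30d-5p (-1.01 and -1.13) passed the threshold. The same held for miR-30d-5p without adult knockout replicate 2, and for miR-30e-5p without adult wild-type replicate 2 (-2.27).

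All 3p arms were lower at e13.5 by their log2 difference, and 5 of 6 passed edgeR's threshold, where 28.4% of all miRNAs tested passed as lower. The log2 differences were -3.57 (SE 0.54, edgeR adjusted p = 0.000744) for miR-30e-3p, -3.18 (SE 0.60, adjusted p = 0.00223) for miR-30c-1-3p and -3.004 (SE 0.48, adjusted p = 0.00095) for miR-30a-3p. Smaller differences were found for miR-30b-3p, at -1.85 (SE 0.59, edgeR adjusted p = 0.0261), and miR-30c-2-3p, at -1.42 (SE 0.46, edgeR adjusted p = 0.0282). Leaving out single libraries moved miR-30b-3p between -2.45 (without the e13.5 wild type) and -1.30 (without the e13.5 knockout). It moved miR-30c-2-3p between -1.48 (without the e13.5 knockout) and -0.82 (without adult wild-type replicate 2). Neither of these arms passed the threshold when any adult library was left out. With all libraries kept, the arm that missed the threshold was the scarcest, miR-30d-3p, at -1.46 (SE 0.74, edgeR adjusted p = 0.115). Its lowest adult library had 16.8 CPM and e13.5 wild type 18.1 CPM.

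**Figure D2:**
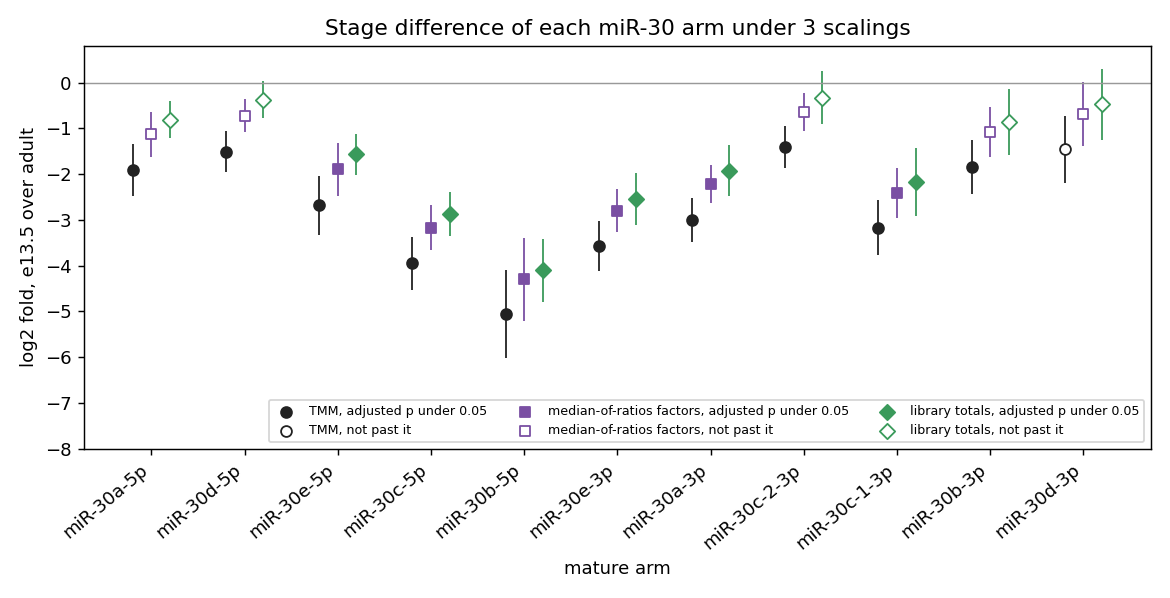
Log2 difference between e13.5 and adult libraries for each miR-30 arm with its standard error, from the additive edgeR fit over 6 libraries, under TMM scaling, median-of-ratios size factors and library totals, with filled points for an adjusted p under 0.05. All arms lie below 0 under each scaling, from -1.42 to -5.06 under TMM, and all move toward 0 under library totals.

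The count of 10 arms depended on scaling. The median log2 difference of all miRNAs, -0.06 under TMM, was 0.72 with median-of-ratios size factors and 0.93 with library totals, and with each of these 6 of the 11 arms were lower (19.6% and 17.7% of all tested). The arms miR-30a-3p, miR-30b-5p, miR-30c-5p, miR-30c-1-3p, miR-30e-5p and miR-30e-3p passed under both, and miR-30b-3p and miR-30c-2-3p under neither. For miR-30a-5p the values were -1.13 (edgeR adjusted p = 0.0839) and -0.81 (adjusted p = 0.0909). Likewise miR-30d-5p had -0.72 (edgeR adjusted p = 0.126) and -0.38 (adjusted p = 0.441). Calls higher at e13.5 made up 50.8% of all stage calls under TMM, 64.4% with median-of-ratios size factors and 68.7% with library totals. Leaving out 1 library left 5 arms past the threshold without adult wild-type replicate 2 or without the e13.5 knockout, and 6 without adult wild-type replicate 1. Fewer miRNAs passed over the whole set in these fits too, 282 of 652, 261 of 751 and 278 of 657 in the same order, against 57.7% with all libraries. All 11 differences stayed below 0 in the 13 alternative fits on mature arms, and 5 arms (miR-30a-3p, miR-30b-5p, miR-30c-5p, miR-30c-1-3p and miR-30e-3p) passed in every one.

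Shares within the family do not depend on scaling between libraries, and they differed between stages. Of the summed 5p counts, miR-30b held 2.02% and 1.66% in adult wild type and 1.67% and 1.88% in adult knockout, but 0.446% and 0.080% in the e13.5 wild-type and knockout libraries. The share of miR-30c was 19.5% and 14.4% in adult wild type, 15.5% and 12.6% in adult knockout, and 5.29% and 3.11% at e13.5. Thus both were smaller in each e13.5 library than in any adult library. The share of miR-30d was 30.9% and 28.4% in adult wild type, 33.3% and 25.5% in adult knockout, and 36.1% and 50.4% at e13.5, higher in both embryonic libraries. The stages overlapped for miR-30a, at 35.3 to 41.6% in adults against 45.7% and 37.7%, and for miR-30e, at 12.2 to 19.0% against 12.4% and 8.71%. Together miR-30a and miR-30d held 65.0 to 68.6% of the 5p counts in adults, 81.8% in e13.5 wild type and 88.1% in e13.5 knockout.

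**Figure D3:**
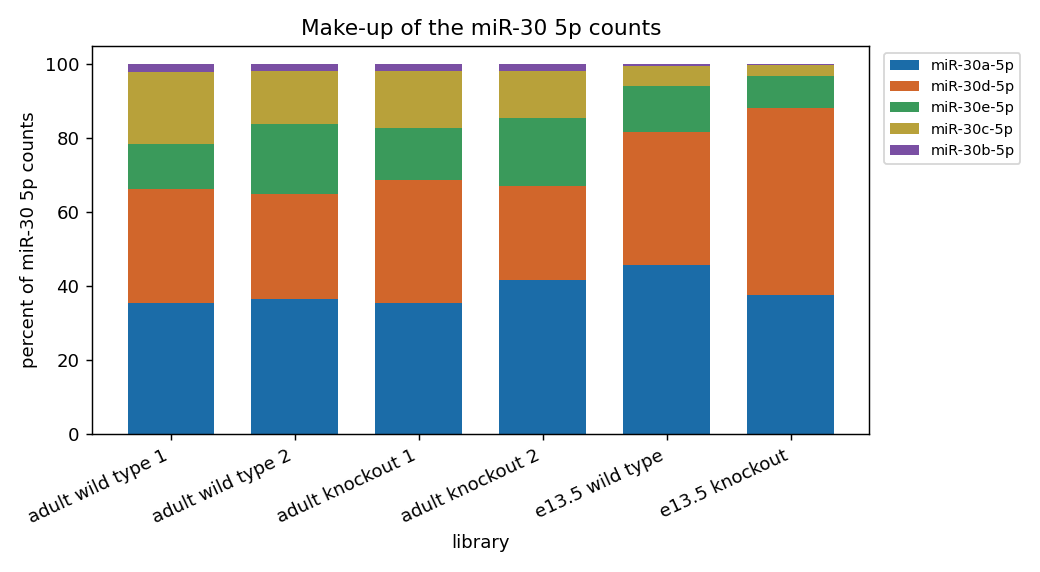
Share of the summed miR-30 5p counts held by each member, in percent, with 1 stacked bar per library. The miR-30b and miR-30c segments are smaller in the 2 e13.5 libraries than in any adult library, and miR-30d rises to 50.4% in the e13.5 knockout.

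Members of 1 genomic pair did not keep 1 ratio across stages. On chromosome 15, miR-30d-5p had 15.3 and 17.2 times the counts of miR-30b-5p in adult wild type and 19.98 and 13.6 times in adult knockout. At e13.5 it had 81.0 times in wild type and 630.3 times in knockout, the latter resting on 179 counts of miR-30b-5p. The log2 ratio of miR-30b-5p to miR-30d-5p differed by -3.79 between stages (e13.5 mean minus adult mean). Their scarce 3p arms overlapped between stages.

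On chromosome 1, miR-30a-3p had 5.07 and 4.57 times the counts of miR-30c-2-3p in adult wild type, 5.33 and 5.87 times in adult knockout, and 1.80 and 1.63 times at e13.5. The adult genotypes did not overlap here, but an exact two-sided permutation test of 2 against 2 libraries cannot go below p = 0.333. On chromosome 4, miR-30e-3p had 37.4, 35.5, 34.4 and 38.1 times the counts of miR-30c-1-3p in the 4 adult libraries, and 27.5 and 28.2 times at e13.5. These 3 ratios were of 5p arms for chromosome 15 and of 3p arms for the others. In each, both e13.5 libraries lay on 1 side of all adult libraries. As printed, the ratio was higher at e13.5 for chromosome 15 and lower for the others, and its direction depends only on which arm is divided by which. Pairs outside the family were not examined, and 57.7% of all miRNAs tested passed the stage test. For 4 against 2 libraries the exact two-sided permutation test cannot go below p = 0.133.

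The balance between the arms of a hairpin moved in opposite directions in different members. For miR-30a, 5p counts were 32.8 and 24.6 times 3p counts in adult wild type, 19.2 and 50.2 times in adult knockout, and 76.7 and 56.0 times at e13.5. For miR-30e the ratio was 10.1 and 11.2 in adult wild type, 6.21 and 19.0 in adult knockout, and 21.1 and 21.6 at e13.5. Both hairpins therefore had more 5p per 3p count in each e13.5 library than in any adult library. For miR-30b the ratio was 97.7 and 55.1 in adult wild type, 36.1 and 138.8 in adult knockout, and only 12.6 and 3.73 at e13.5. For miR-30c, set against the sum of both its 3p arms, the ratio was 79.9 and 38.6 in adult wild type, 37.7 and 75.7 in adult knockout, and 15.03 and 7.29 at e13.5. These were lower in both e13.5 libraries, and miR-30d overlapped. Among 76 hairpins with at least 10 counts in each arm and library, 42.1% were higher and 31.6% lower in both e13.5 libraries, so a change of arm ratio with stage was common across the table. The median size of the log2 difference over those hairpins was 2.32, against 1.14 and 0.99 for miR-30a and miR-30e (higher), and -3.39 and -2.38 for miR-30b and miR-30c.

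**Figure D4:**
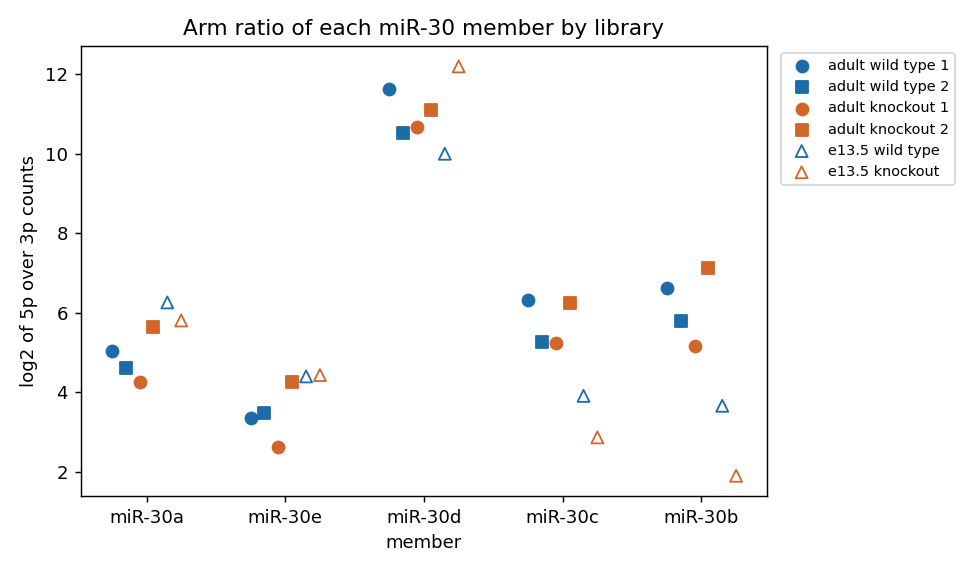
Ratio of 5p to 3p counts for each miR-30 member on a log2 scale, with 1 point per library, blue for wild type and orange for knockout, filled for adult and open for e13.5 (miR-30c-5p over the sum of its 2 3p arms). The e13.5 points lie above the adult points for miR-30a and miR-30e, below them for miR-30b and miR-30c, and on both sides for miR-30d.

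No miR-30 arm passed the threshold between LncSync-/- and wild-type adult cardiomyocytes. Adult knockout was compared with adult wild type in 2 against 2 libraries with 2 residual degrees of freedom, and 0 of the 11 arms passed edgeR's quasi-likelihood test, where 0.735% of 544 miRNAs did. None of the 11 had an unadjusted p under 0.05, and DESeq2 and limma called 0 of them as well. The log2 differences (knockout minus wild type) ran from -0.15 for miR-30c-2-3p to 0.42 for miR-30a-5p, with standard errors of 0.42 to 0.60 and an edgeR adjusted p of 0.999 for each arm. Their median was 0.17, against 0.08 for all miRNAs tested. A missed threshold with errors of this size does not show that the genotypes had the same levels.

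After TMM scaling, the adult knockout replicates differed from each other in the 5p arms more than the genotype means did. In all 5 5p arms adult knockout replicate 1 lay below, and replicate 2 above, both wild-type libraries, with replicate 2 at 1.87 (miR-30d) to 3.15 (miR-30e) times replicate 1. The same order was seen in 0 of the 6 3p arms, where that ratio was 0.716 to 1.39, and in 17.7% of the 679 miRNAs. Knockout libraries lay on either side of both wild types, in either order, in 30.5%. In CPM of library total the order held for miR-30a-5p and miR-30e-5p only. There, knockout replicate 2 lay below wild-type replicate 1 for miR-30b-5p (3075 against 3140 CPM), miR-30c-5p (20637 against 30343 CPM) and miR-30d-5p (41743 against 47987 CPM). Without knockout replicate 1, miR-30a-5p (log2 difference 0.98, edgeR adjusted p = 0.0227) and miR-30e-5p (1.004, edgeR adjusted p = 0.0240) passed the threshold, but calls rose over all miRNAs too, to 35 of 603 from 4 of 544. Without knockout replicate 2 no arm passed, 47 of 645 miRNAs did, and 5p arms turned lower, such as miR-30b-5p at -0.71 and miR-30a-5p at -0.59. In both fits the spread came from the 2 wild-type libraries alone and the lone knockout was assumed to vary like them, so these p-values carry no knockout variation. Other measures moved with these 2 libraries: cardiac muscle miRNAs held 28.2% and 39.5% of counts in replicates 1 and 2, and the erythroid miRNAs miR-451a, miR-144 and miR-486 held 2.23% and 0.565%. In a subset of 117 miRNAs, of which 96 had a known sequence, the fold of replicate 2 over replicate 1 was set against base composition. It had a Spearman rho of -0.38 with the number of G and C bases across these 96. Their part in the spread of the 5p arms was not tested.

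**Figure D5:**
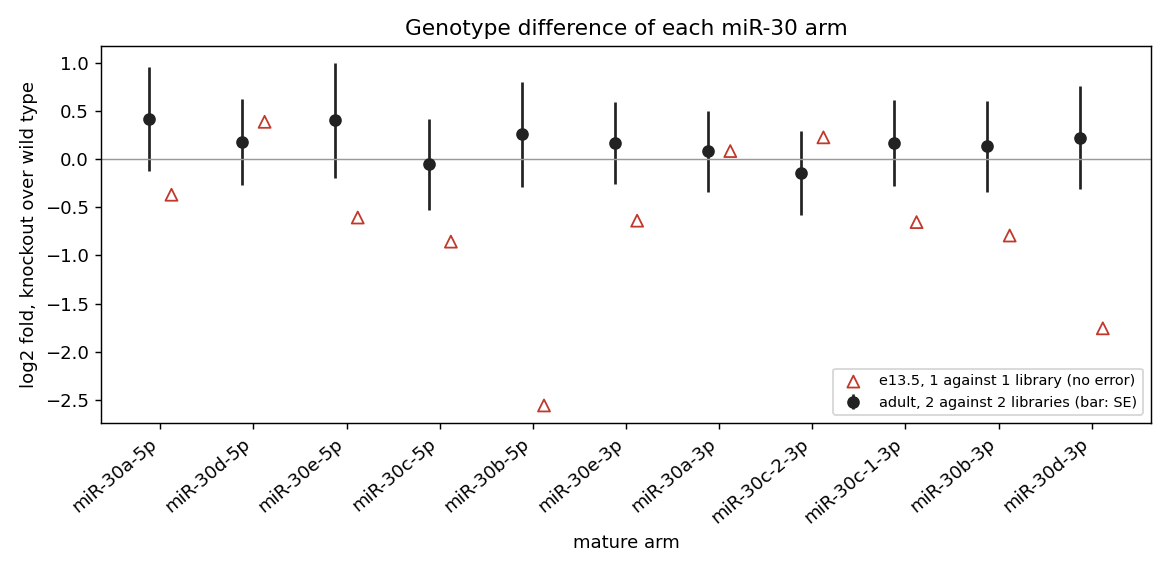
Log2 difference between knockout and wild type for each miR-30 arm, in adults (edgeR, 2 against 2 libraries, with standard error) and at e13.5 (1 against 1 library, no error). Adult values lie between -0.15 and 0.42, and at e13.5 miR-30b-5p stands lowest at -2.56.

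At e13.5 each genotype had 1 library, so the difference has no replicate check and no test. The 2 libraries also differed in the shares of cell markers. In wild type and knockout, cardiac muscle miRNAs held 14.6% and 9.86%, smooth muscle and fibroblast miRNAs 35.6% and 21.5%, and erythroid miRNAs 0.0748% and 1.43%. The part of these markers in the e13.5 genotype values was not tested. The arm that stood apart was miR-30b-5p, with 284 CPM of library total in wild type and 67.0 CPM in knockout, a ratio of 4.24 (95% counting interval 3.64 to 4.96). After TMM scaling of the 2 libraries its log2 difference was -2.56, and it was the 1 arm of 11 at least 4-fold lower, as were 6.73% of 565 miRNAs; 0 arms were at least 4-fold higher, as were 10.4%. It was -2.08 with library totals and -2.50 with median-of-ratios size factors. Its neighbour miR-30d-5p went the other way, at 0.39 after TMM scaling, and its CPM of library total was 1.83 times higher in the knockout (counting interval 1.82 to 1.85).

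The remaining e13.5 differences were smaller. Of the 5p arms, miR-30c had -0.86, miR-30e -0.61 and miR-30a -0.37. In all, 8 of the 11 arms were below 0, as were 53.3% of all 565. The median was -0.64 over the arms, against -0.11 over all 565. With library totals 7 arms were below 0, against 39.6% of all 565, and miR-30a-5p turned to 0.12. The median was then -0.15 over the arms, against 0.36 over all 565. The scarce miR-30d-3p had -1.76 and rested on 201 and 24 counts, a ratio of CPM of 2.502 with a counting interval of 1.63 to 3.996. Across 475 of the 565 miRNAs with a known sequence, the e13.5 log2 difference had a Spearman rho of 0.55 with the number of G and C bases. Its part in the e13.5 values was not tested, and a check over the 11 arms was void because only 63.6% of them have a sequence here.

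With stage in the model, knockout against wild type over all 6 libraries called 0 of the 11 arms, where 0.736% of 679 miRNAs passed edgeR's test. None of the arms had an unadjusted p under 0.05, and DESeq2 and limma called 0. The log2 differences ran from -0.74 for miR-30b-5p to 0.10 for miR-30d-5p. Whether the genotype difference itself differed between stages was tested by the interaction, in which the lone e13.5 libraries were assumed to vary like the adult replicates. It called 0 of the 11 arms and 0% of 769 miRNAs, with 46 at an unadjusted p under 0.05. Of these 46, 1 was a family member: miR-30b-5p had an interaction of -3.09 (SE 1.002, edgeR unadjusted p = 0.0127, adjusted p = 0.760). DESeq2 and limma called 0 arms there.

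The interaction of miR-30b-5p depended on the adult knockout libraries. Without replicate 1 it was -3.67, and 4 arms passed the threshold in all, with miR-30e-5p at -1.90, miR-30a-5p at -1.64 and miR-30c-5p at -1.50, beside 87 of 737 miRNAs. Without replicate 2 it was -2.14 and was the 1 arm that passed, beside 40 of 753 miRNAs. In both fits every group but adult wild type had 1 library, so the spread came from the 2 adult wild-type libraries alone, and the calls say nothing of the variation in the other groups.

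Members varied more from each other across the 6 libraries than across the adults alone. As a measure of likeness, the SD of the log2 ratio of 2 arms ranged over the 6 libraries from 0.374 (miR-30a-5p with miR-30d-5p) to 2.18 (miR-30b-5p with miR-30d-5p, the chromosome 15 pair). Over the 4 adults it ranged from 0.161 (miR-30a-5p with miR-30b-5p) to 0.555 (miR-30c-5p with miR-30e-5p). The miRNAs outside the family whose levels followed the summed 5p arms most closely over the 6 libraries were miR-185-5p (SD 0.277), miR-26a-5p (0.309), miR-125b-2-3p (0.331), miR-425-5p (0.346) and let-7f-5p (0.352). The median over 161 candidates with a mean of at least 100 CPM was 1.60. These values rest on 6 libraries that share scaling and depth and are descriptions.

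One miRNA outside the family, miR-384-5p, carries the same seed in RefSeq and is shown for comparison with the 5p arms above.
miR-384-5p: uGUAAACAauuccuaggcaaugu
It had 21 and 11 counts in adult wild type, 0 and 20 in adult knockout, and 2 and 6 at e13.5, a total of 60. Each 5p arm of the family had more counts than miR-384-5p in every library.

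Other miRNAs of heart muscle and matrix control gave a scale for the stage difference. Of the cardiac muscle arms, 8 of 10 tested passed edgeR's threshold as lower at e13.5 and 1 as higher, with a median log2 difference of -4.06. The muscle miRNA miR-133a-3p had -7.54 (SE 0.64) and miR-133b-3p -8.50 (SE 0.81), both past edgeR's threshold, whereas miR-1a-3p had -1.54 (SE 0.75, edgeR adjusted p = 0.106). In the miR-29 family, known to repress collagen mRNAs, all 7 arms passed as lower, with a median of -6.32. Its most abundant arms were miR-29a-3p at -9.43 (SE 0.64), miR-29c-3p at -9.67 (SE 0.89) and miR-29b-3p at -6.32 (SE 0.76). The miR-30 median of -2.69 was smaller in size than either. Of the markers of other cells that the heart can hold, leukocyte miRNAs held 0.0998 to 0.214% of adult counts and 0.00664% and 0.0128% at e13.5. Erythroid miRNAs held 0.565 to 2.23% in adults and 0.0748% and 1.43% in wild type and knockout at e13.5, where the stages overlapped. The endothelial miR-126a held 1.65 to 3.11% in adults and 1.90% and 1.63% at e13.5. Neuronal, epithelial and liver miRNAs held at most 0.0155%, 0.00548% and 0.000383% in adults and at most 0.0306%, 0.204% and 0.0192% at e13.5. These shares are of library totals and can differ from the TMM-scaled test. In that test both miR-126a arms passed as lower at e13.5 (median log2 difference -1.90). Of 2 neuronal arms tested 1 passed as lower (median -1.95), and of 7 epithelial arms tested 6 passed as higher. The part of these markers in the family's stage difference was not tested.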

How the data were processed

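The authors deposited 1 table of raw read counts per miRNA for 6 libraries (NEXTFLEX small RNA kit, per the labels' protocols) with replicates not pooled. Per the submitters' processing notes mm10 was the genome build; aligner, counter and treatment of multiply fitting reads were not given in the sources used here. Of 3208 features, 1234 were hairpins and 1974 mature miRNAs; hairpin counts repeat those of their arms, so mature counts were used. The 22 mature miRNAs whose counts lay within 1% of another's (no miR-30 arm) were merged, leaving 1952. Tests used edgeR 4.0.16 in R 4.3.3 (glmQLFit, glmQLFTest, two-sided) with TMM scaling, filterByExpr at a minimum count of 10 and Benjamini-Hochberg adjustment over all miRNAs tested. They were run on simulated data with less spread between libraries than these have, so that check does not cover the spread seen here. DESeq2 1.42.0, limma 3.58.1, other scalings, no filter, hairpin or unmerged counts and leaving out each library were alternatives. A count of 0 allows up to 3 counts, or 0.1673 to 0.2091 CPM in adults, 0.3354 in e13.5 wild type and 1.123 in e13.5 knockout. Log2 folds at e13.5 used a prior count of 2, over miRNAs that reached 10 counts in at least 1 of the libraries. The text names all miR-30 arms, the 5 other miRNAs of mean CPM at least 100 with the smallest SD of log2 ratio to the summed 5p arms, sharers of the seed, and the 3 most abundant arms of the cardiac and miR-29 lists. Members, lists and tests were chosen with earlier results of these data known, and the order of the 2 adult knockout libraries around the wild types was counted after its values were seen.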

Additional observations from a re-analysis of the deposited data

How the results depend on the processing

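For the stage comparison, 6 of the 11 miR-30 arms passed with DESeq2 (157 of 679 miRNAs lower), with median-of-ratios size factors and with library totals, 6 of 6 hairpins passed with hairpin counts (132 of 599 lower), and 5 to 9 arms passed when 1 library was left out, with 261 to 381 miRNAs of the whole table. Adult genotype called 0 to 2 arms when 1 library was left out (2 without knockout replicate 1) and 5 to 47 miRNAs of the table, or 9 with no filter, against 4. Genotype over both stages called 3 miRNAs with hairpin counts and 3 to 5 with 1 library left out. The interaction called 0 to 4 arms and 0 to 87 miRNAs with 1 library left out, and 4 miRNAs with DESeq2, 1 with library totals and 2 with no filter. The adult log2 difference turned negative with library totals for miR-30a-3p (-0.090), miR-30b-5p (-0.11) and miR-30d-5p (-0.12).
With 1 adult library left out, it ranged from -0.59 to 0.98 for miR-30a-5p, -0.16 to 0.24 for miR-30a-3p, -0.71 to 0.81 for miR-30b-5p, -0.15 to 0.34 for miR-30b-3p, -0.70 to 0.35 for miR-30c-5p, -0.12 to 0.39 for miR-30c-1-3p and -0.46 to 0.095 for miR-30c-2-3p. The other ranges were -0.40 to 0.56 for miR-30d-5p, -0.22 to 0.70 for miR-30d-3p, -0.70 to 1.004 for miR-30e-5p and -0.10 to 0.34 for miR-30e-3p. The median e13.5 difference over the 11 arms was -0.15 with library totals, against 0.36 over all 565 miRNAs.
The family's share was 11.3% in adults, 5.61% in e13.5 wild type and 7.03% in e13.5 knockout with hairpin counts, 34.4%, 24.1% and 21.9% without the 10 most abundant other miRNAs, and 6.43% and 8.42% at e13.5 with unmerged counts. The miR-30c-5p counts are held by both Mir30c hairpins, so they enter the hairpin share and the hairpin calls above under each of them. The family's share stayed lower at e13.5 in each setting. The cause of these shifts was not tested. No pairing of adult libraries by replicate number was seen (correlation of deviations 0.009 over 544 miRNAs). With 2 libraries per genotype this cannot exclude pairing. With a replicate block 0 miR-30 arms and 5 miRNAs passed. Depth limits the e13.5 knockout library most, where miR-30d-3p had 24 counts and miR-30b-5p 179.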
